A study of Mus musculus with 4 samples.

Results

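The nuclear receptor genes encode transcription factors that bind DNA and, in many cases, a small lipid-soluble ligand such as a steroid, thyroid hormone, a retinoid or a fatty acid. A list of 42 such genes was taken by symbol, all 42 were found among 21900 protein-coding genes placed in the mouse genome, and open chromatin regions were assigned to a gene if they overlapped it or lay within 10 kb of it. At the 42 genes there were 267 such regions of 61972 in all, and 40 of the 42 genes had at least 1. The series profiled open chromatin by ATAC-seq, where a transposase cuts and tags DNA that it can reach, in frozen lung tumours of 4 C57B6J mice aged 55 weeks. The KrasLA1 group (genotype KrasLA1/+) and the KrasLA1;Dicer1S2D group (genotype KrasLA1/+;Dicer1S2D/+) held 2 mice each. Replicate 1 was the female and replicate 2 the male of each group, and tumours are named here by genotype and sex. All 4 mice therefore carried the KrasLA1 allele, and the groups differed in Dicer1S2D. Dicer1S2D changes Dicer1, the enzyme that cuts microRNA precursors, at serines so as to resemble its phosphorylated form. Both alleles are germline, so all cells of the mouse carry them, and a piece of tumour also holds blood vessels, immune cells and stroma.

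The receptors act in pairs or alone. Retinoid X receptors (Rxra, Rxrb, Rxrg) are the shared partners of thyroid, retinoic acid, vitamin D, fatty acid and oxysterol receptors, steroid receptors mostly bind as pairs of themselves, and several orphan receptors have no established natural ligand. In the lung, retinoic acid and glucocorticoid receptors are known for their part in alveolar development and maturation, and Pparg for its part in alveolar macrophages and lipid handling.

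The deposited values are positions of peaks, called in each library on its own, with no height or read count. A region is thus called or not called in a library, and sequencing depth is unknown. The libraries held between 34767 and 50282 peaks, the fewest in the KrasLA1;Dicer1S2D male and the most in the KrasLA1;Dicer1S2D female. Of the lung markers, all 4 general epithelial genes (Epcam, Cdh1, Krt8, Krt18) and all 4 alveolar type 2 genes (Sftpb, Sftpc, Nkx2-1, Lamp3) had a region called in every library, as did the leukocyte genes Ptprc and Spi1 and the fibroblast genes Col1a1 and Pdgfra. Of the 2 endothelial genes Pecam1 had regions in every library and Cdh5 had 0. The airway genes Scgb1a1 and Foxj1 had a region in every library. Of the 3 neuronal genes, Neurod1 had 0 regions, but Syt1 and Rbfox3 also had a region called in every library. At a start the 3 neuronal genes had 0 peaks, as did Pdgfra, and Ptprc had one in the KrasLA1 male only. Epcam, Krt8, Krt18, Sftpb, Nkx2-1 and Lamp3 had a peak at a start in every library, and the other markers had no listed start. The check by regions therefore does not set neuronal genes apart from lung markers. Peaks at starts set them apart from the epithelial and alveolar type 2 genes with a listed start. Of these markers Cdh1, Nkx2-1 and Spi1 had a lost region and Syt1 gained ones (terms defined below), and their part in the receptor results was not tested. In such mixed tissue, fewer cells with an open region and less accessibility per cell cannot be told apart.

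Starts of transcription in RefSeq (GRCm38.p6) were matched for 39 of the 42 genes, all except Thra, Nr3c1 and Nr5a1. The 250 bases before the start are shown for 4 receptor genes whose start differed in the number of libraries with a peak. They are Rxra (called in all 4 tumours, with the 1 lost region of the family near a start), Rorb (called in both male tumours), Esr2 (called in 3 tumours) and Esrrb (0 tumours). Rxra followed from the rule for printing, and the other 3 were chosen after their values were seen. Each is written 5′ to 3′ on the strand of the gene, from chr2:27676951-27677200 (plus strand), chr19:19111197-19111446 (minus), chr12:76177260-76177509 (minus) and chr12:86360867-86361116 (plus). Capitals mark GC boxes (GGGCGG on either strand), E-boxes (CACGTG) and the receptor binding hexamer (AGGTCA on either strand).
Rxra: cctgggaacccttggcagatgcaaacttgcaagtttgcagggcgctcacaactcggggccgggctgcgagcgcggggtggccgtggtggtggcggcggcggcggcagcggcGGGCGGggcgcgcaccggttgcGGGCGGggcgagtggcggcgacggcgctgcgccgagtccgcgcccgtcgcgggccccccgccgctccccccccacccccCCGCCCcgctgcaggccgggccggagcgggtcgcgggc
Rorb: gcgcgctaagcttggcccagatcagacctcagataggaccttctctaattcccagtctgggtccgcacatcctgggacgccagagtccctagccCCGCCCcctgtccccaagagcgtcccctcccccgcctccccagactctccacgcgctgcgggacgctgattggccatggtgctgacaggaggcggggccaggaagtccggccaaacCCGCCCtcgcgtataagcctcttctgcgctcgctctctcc
Esr2: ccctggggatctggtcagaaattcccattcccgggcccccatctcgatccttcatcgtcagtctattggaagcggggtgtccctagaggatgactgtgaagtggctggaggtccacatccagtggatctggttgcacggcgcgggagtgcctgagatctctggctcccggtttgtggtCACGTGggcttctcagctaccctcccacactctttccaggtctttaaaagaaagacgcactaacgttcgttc
Esrrb: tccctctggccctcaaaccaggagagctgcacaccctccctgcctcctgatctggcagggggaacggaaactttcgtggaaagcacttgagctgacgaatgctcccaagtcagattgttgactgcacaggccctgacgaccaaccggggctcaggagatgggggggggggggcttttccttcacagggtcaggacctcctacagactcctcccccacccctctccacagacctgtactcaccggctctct

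The Rxra window held 3 GC boxes and 81.2% G and C, the Rorb window 2 GC boxes and 66.0%, the Esr2 window 1 E-box and 56.4%, and the Esrrb window none of the 3 motifs and 60.8%. Over all 58 start windows of receptor genes (250 bases before to 50 after the start), AGGTCA was found in 10 (17.2%, against 16.3% of 32851 windows in the table), GGGCGG in 27 (46.6%, against 35.7%) and CACGTG in 6 (10.3%, against 7.15%). All were searched on both strands, and AGGTCA shares end letters with CACGTG, so matches of these can overlap. A match is a match of letters and says nothing of binding.

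Most receptor genes were open at a start in every tumour, and the genotypes overlapped in the number of such genes. Of the 39 genes with a start in the table, 25 (64.1%) had a peak at a start in all 4 tumours, against 51.7% of 16457 autosomal protein-coding genes. Another 10 (25.6%) had 0 peaks at a start, against 42.4% of those autosomal genes, and 4 lay between. The number of genes with a peak at a start was 27 and 29 in KrasLA1 (female, male), and 28 and 26 in KrasLA1;Dicer1S2D (female, male). The groups overlapped. The 25 genes included the retinoic acid receptors Rara, Rarb and Rarg, the thyroid hormone receptor Thrb, the fatty acid receptors Ppara, Ppard and Pparg, the oxysterol receptors Nr1h2 and Nr1h3, the vitamin D receptor Vdr, the clock repressors Nr1d1 and Nr1d2, and the immediate-early receptors Nr4a1, Nr4a2 and Nr4a3.

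**Figure D1:**
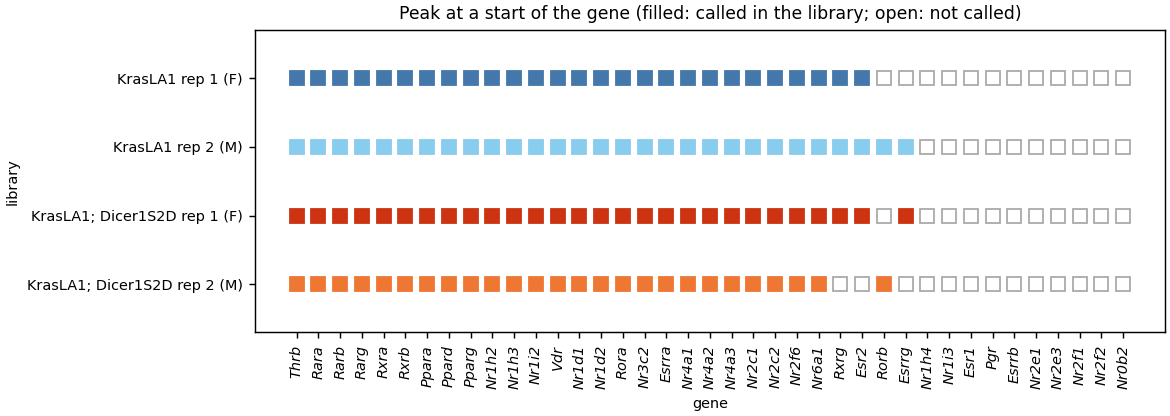
Peak calls at the starts of 39 nuclear receptor genes (horizontal axis) in the 4 libraries (vertical axis; F female, M male). Filled squares are genes with a peak over any start window in that library and open squares are genes without; 25 genes are filled in all 4 rows, 10 in none, and Rxrg, Esr2, Rorb and Esrrg in some.

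The 4 genes with a start called in some tumours did not divide by genotype. At Rorb, an orphan receptor known from retina and brain, the region over the start (chr19:19110881-19111472) was 536 bp in the KrasLA1 male and 493 bp in the KrasLA1;Dicer1S2D male, and was not called in either female. At Esr2, the gene of estrogen receptor beta, the region over the start (chr12:76177033-76178060) had peaks of 195 and 1028 bp in KrasLA1 (female, male) and of 382 bp in the KrasLA1;Dicer1S2D female, and none in the KrasLA1;Dicer1S2D male. Rxrg, the retinoid X receptor of muscle and brain, was called at its start in the same 3 tumours as Esr2. Esrrg, an estrogen-related receptor of tissues with high energy use, was called at a start in the KrasLA1 male and the KrasLA1;Dicer1S2D female. In each of the 4 genes, tumours of both genotypes had a call.

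The 10 genes without a peak at a listed start were Esr1, Pgr, Esrrb, Nr1h4, Nr1i3, Nr0b2, Nr2e1, Nr2e3, Nr2f1 and Nr2f2. They include the estrogen receptor alpha and progesterone receptor genes, the bile acid receptor Nr1h4 and its target repressor Nr0b2, and the xenobiotic receptor Nr1i3 of liver. The window is narrow: the nearest region lay 429 bp inside the gene at Esr1 and 385 bp before the gene at Nr2f1. With 1 kb on each side of the start, 25 genes were again open in all 4 tumours, a count that a wider window cannot lower. The list of 10 does depend on the window, since those regions of Esr1 and Nr2f1 lie within 1 kb of a start. It also depends on the starts listed. The only listed start of Nr1h4 (minus strand) lies inside the gene, at position 89506658 of chromosome 10. A region over the upstream end of Nr1h4 (chr10:89533152-89533805) was called in all 4 tumours. Nr1h4 is therefore in the list for want of a peak at that internal start only. The Esr1 region was called in both males, and the Nr2f1 region in all tumours but the KrasLA1 male. Windows called in all 4 tumours had a median of 65.2% G and C (30 windows of receptor genes), those called in 1 to 3 had 58.8% (6 windows) and those in none had 51.4% (22 windows). Over all autosomal windows the medians were 61.2%, 55.2% and 47.6% in the same order, a gradient of the same direction. A GC box was found in 20 of the 30 windows called in all 4 tumours and in 4 of the 22 without a call. These shares were 66.7% and 18.2%, against 62.1% and 13.97% of all autosomal windows in the same order. The contrast was therefore not particular to receptor genes.

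Receptor genes had a median of 4 regions (0 to 27), against 2 for 20665 autosomal protein-coding genes, and were longer (median 46.8 against 17.5 kb); per 100 kb of gene and flanks the medians were 6.62 and 4.35. Of the 267 regions, 114 (42.7%) were called in all 4 tumours, 39 (14.6%) in 3, 44 (16.5%) in 2 and 70 (26.2%) in 1. Over all autosomal regions the shares were 43.5%, 12.2%, 16.6% and 27.7% in the same order. Of the 70 regions of a single library, 36 (51.4%) were of the KrasLA1;Dicer1S2D female, against 42.7% of all autosomal regions of a single library, and 1 (1.43%) of the KrasLA1;Dicer1S2D male, against 4.26%. Of the 39 missing from a single library, 21 (53.8%) were missing in the KrasLA1;Dicer1S2D male, against 43.7% of all such autosomal regions.

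Away from the starts the calls varied more between tumours. Regions were classed as at a start (32), otherwise in the gene body (192) or in the flanks (43); for the 3 genes without a start in the table no region could be put in the first class. Of regions at a start, 26 (81.3%) were called in all 4 tumours, of those in gene bodies 63 (32.8%), and of flanking regions 25 (58.1%). The same classes were not counted over all autosomal genes, so this contrast cannot be read as particular to receptor genes. Regions counted here can belong to neighbouring genes: 15 of the 267 regions lay at a start of another protein-coding gene, and all 15 were called in every tumour. They were spread over 11 receptor genes. The 3 regions of Rxrb were among them, with the starts of H2-Ke6, Ring1 and Slc39a7. Regions at a start had a median width of 983.5 bp, those in gene bodies of 439 bp and those in flanks of 601 bp.

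The first question of the design was whether the tumours with Dicer1S2D differed in open chromatin at these genes, and no difference beyond the spread between tumours was found in the number of regions. Receptor regions called were 177 and 193 in KrasLA1 (female, male), and 217 and 144 in KrasLA1;Dicer1S2D (female, male). The 2 KrasLA1 tumours lay between the 2 KrasLA1;Dicer1S2D tumours. The means were 185 ± 11.3 (SD, n = 2) and 180.5 ± 51.6 (SD, n = 2), a difference of -4.5 regions (exact two-sided permutation test, p = 1). With 2 tumours against 2 the smallest p this test can give is 0.333. The difference was 3.5 without the KrasLA1 male, 32 without the KrasLA1;Dicer1S2D male, -12.5 without the KrasLA1 female and -41.5 without the KrasLA1;Dicer1S2D female, so single libraries set its sign and size.

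The share of receptor regions called followed the share of all regions called in the same library. It was 66.3% and 72.3% in KrasLA1 (female, male) and 81.3% and 53.9% in KrasLA1;Dicer1S2D (female, male). Over all 60713 autosomal regions it was 66.0%, 71.8%, 78.8% and 54.9% in the same order. The gap between receptor regions and all regions was 0.395 ± 0.139 percentage points (SD, n = 2) in KrasLA1 and 0.779 ± 2.40 in KrasLA1;Dicer1S2D (SD, n = 2), and did not differ beyond that spread (two-sided exact permutation, p = 1). Against the 45332 autosomal regions within 10 kb of a gene, called to 67.0%, 75.5%, 79.4% and 57.8%, the gap was -2.0 ± 1.76 and -0.995 ± 4.04 percentage points (SD, n = 2 each; two-sided exact permutation, p = 1). Leaving out the regions at starts of other genes, the shares were 64.3%, 70.6%, 80.2% and 51.2%. The number of peaks per library moved with the receptor counts, and its part in them was not tested beyond this comparison.

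**Figure D2:**
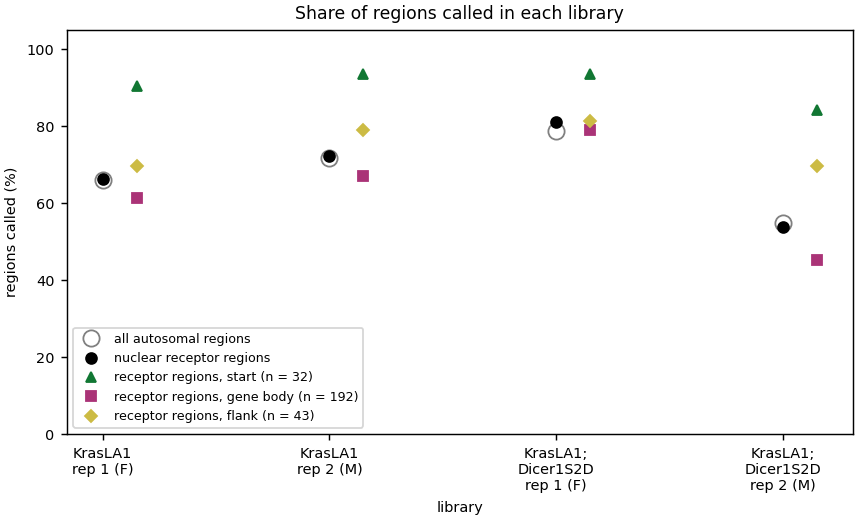
Percentage of regions called (vertical axis) in each library (horizontal axis; F female, M male). Black points are the 267 receptor regions and grey rings the 60713 autosomal regions, which lie close together in every library; triangles, squares and diamonds are receptor regions at a start, in the gene body and in the flanks, of which the gene body regions range from 45.3% to 79.2%.

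Peaks at receptor genes had lower median widths in both KrasLA1;Dicer1S2D tumours, in a design where the test cannot pass 0.05. The median width, summed over the peaks of a library in a region, was 505 and 552 bp in KrasLA1 (female, male) and 440 and 463.5 bp in KrasLA1;Dicer1S2D (female, male), so the groups did not overlap. The means were 528.5 ± 33.2 bp and 451.75 ± 16.6 bp (SD, n = 2 each; exact two-sided permutation test, p = 0.333, the smallest it can give). Over all autosomal regions the same measure gave 462, 535, 422 and 480 bp in the same order, and there the groups overlapped (exact two-sided permutation test, p = 0.667). The excess of the receptor median over it was 30 ± 18.4 bp in KrasLA1 and 0.75 ± 24.4 bp in KrasLA1;Dicer1S2D (SD, n = 2 each; p = 0.667 by the same exact test). Peaks at receptor genes covered 103.8 and 122.2 kb in KrasLA1 (female, male) and 115.8 and 79.97 kb in KrasLA1;Dicer1S2D (female, male), and the groups overlapped. The difference of -15.1 kb did not pass (exact two-sided permutation test, p = 0.667), and it was 2.99 kb without the KrasLA1;Dicer1S2D male.

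The 114 receptor regions called in all 4 tumours could be compared region by region. After log2 widths were centred on the median of each library, none of the 114 passed limma at an adjusted p under 0.05 (smallest adjusted p = 0.9996). Over all 26903 regions called in every tumour 0 passed, which is 0% of those tested. At an unadjusted p under 0.05 limma gave 3 receptor regions, 1 wider and 2 narrower in KrasLA1;Dicer1S2D, which is 2.63% against 2.91% of all regions tested. Without the centring it gave 6, all narrower, which is 5.26% against 4.17%. The median log2 difference (KrasLA1;Dicer1S2D minus KrasLA1) of the receptor regions was 0.04 and that of all such regions 0.04, and both were -0.13 without the centring.

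The 3 regions with the lowest unadjusted p all lay at retinoic acid receptor genes. In Rara (chr11:98959522-98961137, in the gene body) peaks were 1186 and 1258 bp wide in KrasLA1 (female, male) and 679 and 624 bp in KrasLA1;Dicer1S2D (female, male), a log2 difference of -0.74 (SE 0.21, adjusted p = 0.9996 by limma). In Rarb (chr14:16483764-16484492, in the gene body) they were 535 and 710 bp against 317 and 374 bp, a log2 difference of -0.67 (SE 0.23, same adjusted p). In Rarg (chr15:102243404-102243744, in the gene body) they were 180 and 238 bp against 283 and 274 bp, a log2 difference of 0.59 (SE 0.21, same adjusted p). The genotypes did not overlap in these regions, 2 of the differences had one sign and the other the opposite sign, and none passed the test. They were picked for their low p.

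**Figure D3:**
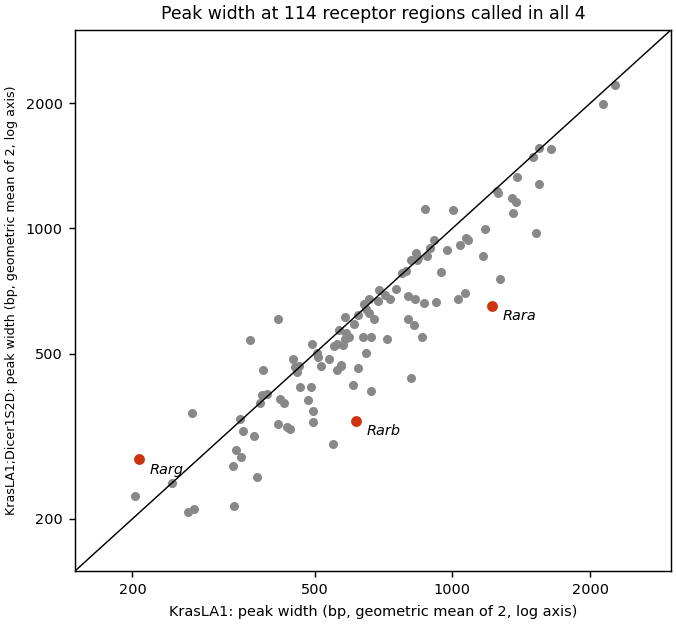
Peak width at the 114 receptor regions called in all 4 tumours, as the geometric mean of the 2 KrasLA1 tumours (horizontal axis, bp, log scale) and of the 2 KrasLA1;Dicer1S2D tumours (vertical axis, bp, log scale), before centring. The line marks equal width, and the red points are the regions in Rara, Rarb and Rarg with the lowest unadjusted p, none of which passed the adjusted test.

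Regions that followed the genotype in every tumour were rare at receptor genes. A region was counted as gained if both KrasLA1;Dicer1S2D libraries and no KrasLA1 library had it. None of the 267 was, where 0.596% of all autosomal regions were. With the reverse pattern, counted as lost, there were 2, where 1.42% of all autosomal regions were. Counted by gene, 0 receptor genes had a gained region (background 1.78% of genes with a region) and 2 of 40 had a lost one (background 4.87%). These counts are near the background, and presence in 2 against 2 tumours has no test that can pass 0.05. Both counts moved with the peaks used: with equal numbers of the widest peaks in each library there were 2 gained regions, at Vdr and Nr2f1, and 1 lost region, at Rarb. Without single libraries the gained regions numbered 5 without the KrasLA1 female, 10 without the KrasLA1 male, 1 without the KrasLA1;Dicer1S2D female and 36 without the KrasLA1;Dicer1S2D male. The lost regions numbered 21, 16, 23 and 5 in the same order.

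The 2 lost regions were both narrow and lay in the bodies of Rxra and Vdr, which encode partners in the receptor pair that responds to vitamin D. The Rxra region (chr2:27677654-27677986) had peaks of 333 and 202 bp in KrasLA1 (female, male), and began 453 bases after the start whose upstream sequence is printed above. The Vdr region (chr15:97896449-97896662) had peaks of 168 and 214 bp in KrasLA1 (female, male), and lay 11634 bases after the start. Both genes were open at the start in every tumour. The Rxra start region (chr2:27676170-27677080) was 812 and 911 bp wide in KrasLA1 (female, male) and 841 and 358 bp in KrasLA1;Dicer1S2D (female, male). The Vdr start region (chr15:97907021-97908702) was 1383, 1626, 1637 and 1349 bp in the same order. Neither lost region was called as such with equal numbers of the widest peaks, and with a minimum peak width of 200 bp the Vdr region was not called as lost and the Rxra region was.

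**Figure D4:**
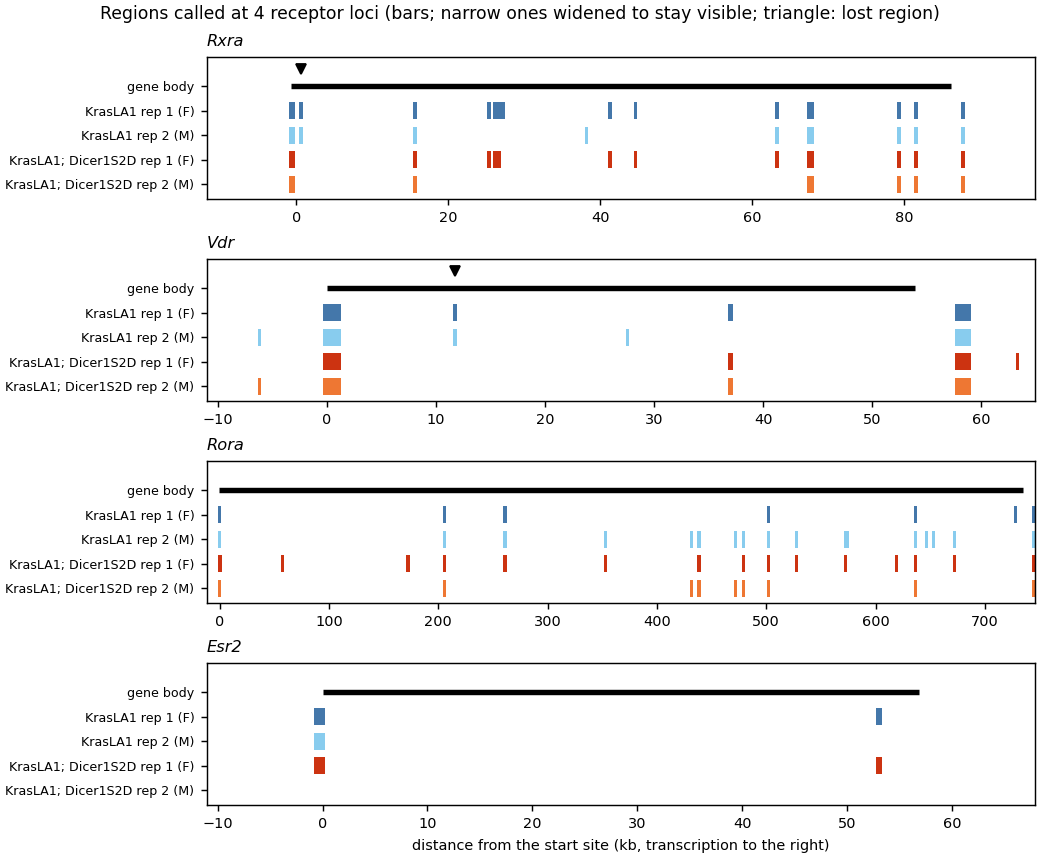
Regions called at Rxra, Vdr, Rora and Esr2 in each library (rows), by distance from the first listed start (horizontal axis, kb, transcription to the right). Coloured bars are regions called in that library, drawn at the width of the merged region or wider to stay visible, the black line is the gene body, and the triangles mark the 2 lost regions, at Rxra and Vdr.

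Pairs of values by genotype below give the female first. Among thyroid and retinoid receptors, regions per gene ranged from 2 at Rxrg to 27 at Thrb and Rarb. The 8 genes held 97 regions, of which the KrasLA1 female and male had 68 each, the KrasLA1;Dicer1S2D female 79 and the KrasLA1;Dicer1S2D male 47. Thrb, the thyroid hormone receptor beta gene, had 27 regions, 16 and 17 called in KrasLA1 (female, male) and 24 and 11 in KrasLA1;Dicer1S2D (female, male). Rarb, a retinoic acid receptor gene that is itself induced by retinoic acid, also had 27, with 20 and 17 called in KrasLA1 and 24 and 10 in KrasLA1;Dicer1S2D. In both genes the KrasLA1;Dicer1S2D tumours were the highest and the lowest of the 4. Rxra had 14 regions, with 13 and 9 called in KrasLA1 and 11 and 6 in KrasLA1;Dicer1S2D, the largest difference of group means among the receptor genes, -2.5 regions. Of the Rxra regions, 4 were called in both females and neither male. They lay between chr2:27702234 and chr2:27721925. Thra and Nr1d1, convergent neighbours whose ends overlap, shared 3 regions within the 10 kb distance. Of these, 1 lay in the body of Thra, and 2 lay in Nr1d1, 1 of them over its start.

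**Figure D5:**
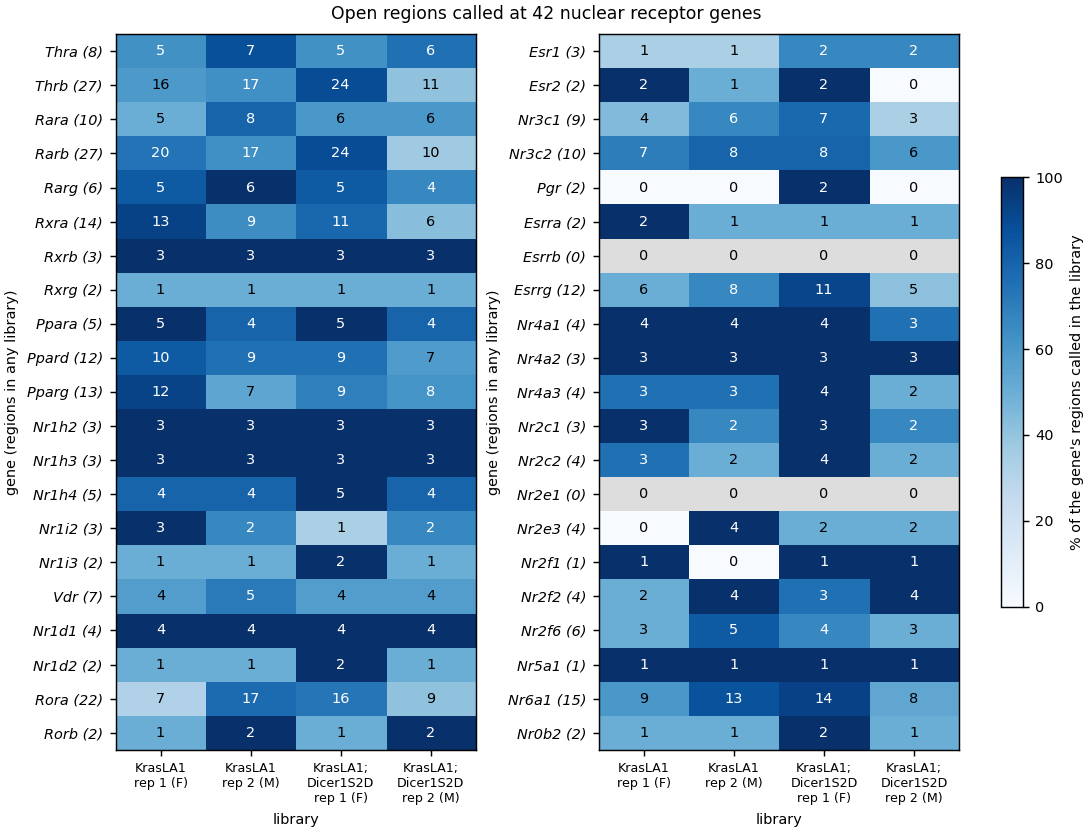
Number of regions called at each of 42 nuclear receptor genes (rows, with the regions in any library in brackets) in each library (columns; F female, M male); the colour is the percentage of that gene's regions called there, and grey marks genes with 0 regions. Rxrb, Nr1h2, Nr1h3, Nr1d1 and Nr4a2 are full in every column, and Thrb, Rarb and Rora vary most.

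The 9 genes of lipid, bile acid, xenobiotic and vitamin D sensors held 53 regions, 45 and 38 called in KrasLA1 (female, male) and 41 and 36 in KrasLA1;Dicer1S2D (female, male), and 31 (58.5%) were called in all 4 tumours, against 43.5% of all autosomal regions and 46.9% of those within 10 kb of a gene. Nr1h2 and Nr1h3, the oxysterol receptors LXR beta and LXR alpha, had 3 regions each, all called in every tumour. Of these, 1 region of Nr1h2 lay at a start of Pold1, and 2 of Nr1h3 lay at starts of Acp2 and Madd. The widest Nr1h3 region (chr2:91182520-91184328) measured between 1496 and 1715 bp in the 4 tumours. It lay 10707 bases after the nearest Nr1h3 start. Pparg had 13 regions, with 12 and 7 called in KrasLA1 and 9 and 8 in KrasLA1;Dicer1S2D. Its start region measured 1558 and 1533 bp in KrasLA1 (female, male) and 1619 and 1508 bp in KrasLA1;Dicer1S2D (female, male). A further start inside Pparg, at position 115422066 of chromosome 6, was covered in the KrasLA1 female only. Ppard, a widely expressed fatty acid receptor, had 12 regions, with 10 and 9 called in KrasLA1 and 9 and 7 in KrasLA1;Dicer1S2D. Nr1i2, the pregnane X receptor of liver and gut, had 3 regions, with 3 and 2 called in KrasLA1 and 1 and 2 in KrasLA1;Dicer1S2D, and its start was called in all 4.

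Among the clock receptors, a compact gene (Nr1d1) and a long one (Rora) are described, and a link of gene length to the calls was not tested. Nr1d1, a repressor of the circadian clock, had all of its 4 regions called in every tumour. Rora, the activator that binds the same elements, spans 734.8 kb and had 22 regions, with 7 and 17 called in KrasLA1 (female, male) and 16 and 9 in KrasLA1;Dicer1S2D (female, male). The low tumours were the female in KrasLA1 and the male in KrasLA1;Dicer1S2D. Of the 42 genes, 6 were longer than 300 kb. They held 101 regions, of which 57 (56.4%) and 68 (67.3%) were called in KrasLA1 and 85 (84.2%) and 43 (42.6%) in KrasLA1;Dicer1S2D, where all autosomal regions gave the 66.0%, 71.8%, 78.8% and 54.9% above.

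Of the steroid receptor regions 30.8% were shared by all tumours, against the 43.5% of all autosomal regions. The 5 genes held 26 regions, 14 and 16 called in KrasLA1 and 21 and 11 in KrasLA1;Dicer1S2D, and 8 were called in all 4. A low share was not particular to them: it was 29.4% for Nr5a1, Nr6a1 and Nr0b2, 35.7% for estrogen-related and 36.7% for clock receptors. It was 40.9% for the Nr2 genes, 41.2% for thyroid and retinoid receptors, 58.5% for lipid and related sensors and 72.7% for the Nr4a genes. Nr3c1, the glucocorticoid receptor gene, had 9 regions, with 4 and 6 called in KrasLA1 and 7 and 3 in KrasLA1;Dicer1S2D. Its 2 regions shared by all tumours were adjacent and wide, with peaks of 1036 to 1457 bp and of 855 to 1014 bp. Nr3c2, the mineralocorticoid receptor gene, had 10 regions, with 7 and 8 called in KrasLA1 and 8 and 6 in KrasLA1;Dicer1S2D. Pgr, the progesterone receptor gene, had 2 regions, both called in the KrasLA1;Dicer1S2D female only. It was the receptor gene whose regions were all of a single library. Esr1 had 3 regions in its body, with 1 called in each KrasLA1 tumour and 2 in each KrasLA1;Dicer1S2D tumour; none of the 3 met the rule for gained.

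Among orphan receptors, Nr4a2, an immediate-early gene induced by many stimuli, had 3 regions called in every tumour. Nr4a1 had 4 regions, all called in 3 tumours and 3 of them in the KrasLA1;Dicer1S2D male, and Nr4a3 had 4, with 3 and 3 called in KrasLA1 and 4 and 2 in KrasLA1;Dicer1S2D. Of the estrogen-related receptors, which act in energy metabolism, Esrra was called at its start in every tumour. Esrrg had 12 regions, with 6 and 8 called in KrasLA1 and 11 and 5 in KrasLA1;Dicer1S2D, and Esrrb, known from pluripotent cells, had 0. Nr2e1, a receptor of neural stem cells, also had 0 regions. Nr2f2, the gene of COUP-TFII, which acts in veins and mesenchyme, had 4 regions, with 2 and 4 called in KrasLA1 and 3 and 4 in KrasLA1;Dicer1S2D. Nr6a1, the germ cell nuclear factor gene, had 15 regions, with 9 and 13 called in KrasLA1 and 14 and 8 in KrasLA1;Dicer1S2D, and held the widest receptor region shared by all tumours, 2413 bp over its start (chr2:38925341-38927753). The next widest of the shared regions lay at the starts of Thrb (2322 bp) and Rara (1914 bp), at Nr1h3 (1809 bp) and at the start of Vdr (1682 bp). A region in Ppard, called in 3 tumours, was wider than that of Vdr, with 1766 bp.

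Across the family, the direction of the genotype difference depended on the pair of tumours compared. By group means 12 of 42 genes had more regions in KrasLA1;Dicer1S2D, 14 had fewer and 16 were equal. Between the females 19 had more, 5 fewer and 18 the same number in KrasLA1;Dicer1S2D, and between the males 3 had more, 18 fewer and 21 the same. The direction was the same in both sexes for 3 genes. Esr1 was higher by 1 region in both, and Rxra (by 2 and 3 regions) and Ppard (by 1 and 2) were lower. Each sex had 1 tumour of each genotype, so these counts have no replicate check.

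Coregulators, enzymes of ligand metabolism and target genes were examined as the wider pathway. Of 16 coregulators, which link receptors to chromatin enzymes, 0 had a gained and 2 a lost region, against 1.78% and 4.87% of all autosomal genes with a region. By region, 2 of 117 (1.71%) were lost, against 1.42%. The genes were Ep300, a histone acetyltransferase, and Nrip1, a corepressor. The 117 coregulator regions were called to 66.7% and 83.8% in KrasLA1 (female, male) and to 77.8% and 62.4% in KrasLA1;Dicer1S2D (female, male). Of 20 genes of ligand production and breakdown, 0 had a gained and 0 a lost region. Of 20 known target genes, 0 had a gained and 5 a lost region, against the same backgrounds. By region, 5 of 111 (4.50%) were lost, against 1.42%. The 5 were Tsc22d3 and Klf9 (glucocorticoid targets), Srebf1 and Scd1 (oxysterol receptor targets of fatty acid synthesis) and Arntl (the clock gene bound by Rora and Nr1d1). Tsc22d3 lies on X and is outside that background. Peaks of these regions were between 198 and 449 bp in the KrasLA1 tumours. With equal numbers of the widest peaks 3 of the 5 remained, Tsc22d3, Srebf1 and Arntl, and 0 coregulators had a lost region. Without the KrasLA1 female the target genes with a lost region were 11, and with the widest 75% of peaks 2. With each library left out, coregulators with a lost region numbered 4 to 9 and those with a gained region 0 to 6.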

How the data were processed

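ATAC-seq peaks of 4 lung tumours were analysed, 2 per genotype. The authors deposited 5 tracks of intervals in mm10, per the file headers: peaks of each library, called separately, and 61972 merged regions. The values are starts and ends of intervals, with no count, score or p-value, so another (positional) unit than counts applies and no count test was run. Tools listed in the submitters' processing notes were MACS3 3.0.0, BWA 0.7.12 and deepTools 3.5.1; settings, peak threshold and read numbers were not stated in the sources used here. Shallower sequencing alone can lower the number of peaks called. All tracks were assigned to samples by animal number, and 0 intervals belonged to other samples.

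Peaks overlapping by 1 bp or more were merged, which gave the authors' 61972 regions exactly. Coordinates are printed counted from 1. Genes, starts and sequences came from RefSeq tables for GRCm38.p6, the assembly of mm10. Peak width in a region is the sum over the peaks of a library. Group means were compared by exact two-sided permutation tests, and log2 peak width by limma 3.58.1 in R 4.3.3 with Benjamini-Hochberg adjustment over all regions called in every library. Python 3.11.15, numpy 2.4.6 and matplotlib 3.10.9 were used. Steps were tested on simulated data. For peak width, recovery of planted changes was required only with the same spread set for all regions, not with the spread of these libraries. The power of the width test in these data is thus not given here. P-values measure the spread between these 4 mice only.

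Named genes were those with a gained or lost region, with 0 regions, with the most regions or the largest difference of means, with all of 3 or more regions shared, with regions of 1 library, and the 5 widest shared regions; other genes were named after their values were seen. The members, lists and tests were chosen with earlier results of these data known. Alternatives covered the distance to genes, the peaks used, the merging, a minimum width, a replicate block, centring and each library left out. The wider start window, the regions without those at starts of other genes, the background of regions within 10 kb of genes, the summed widths over all regions, and the alternatives for the 3 pathway lists were added after seeing the data.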

Additional observations from a re-analysis of the deposited data

Results flagged for a closer look

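The genotype difference in regions called at nuclear receptor genes (KrasLA1;Dicer1S2D minus KrasLA1) had opposite signs in the sexes: 40 regions between the females and -49 between the males. With 1 tumour per sex and genotype the difference between the sexes was not tested. All regions together did the same, with 12.8 and -16.9 percentage points of autosomal regions called.

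Single genes with opposite signs, as regions between females and between males, were Thrb (8 and -6), Rara (1 and -2), Rarb (4 and -7), Rora (9 and -8), Nr3c1 (3 and -3), Nr3c2 (1 and -2), Esrrg (5 and -3), Nr4a3 (1 and -1), Nr2e3 (2 and -2), Nr2f6 (1 and -2) and Nr6a1 (5 and -5). Pparg went the other way (-3 and 1). None of these was tested.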

How the results depend on the processing

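The counts of gained and lost regions depended on the peaks used, and the cause was not tested. Gained regions, 0 in the analysis as reported, were 1 within 50 kb of a gene (1 gene), 2 with equal numbers of widest peaks (2 genes) and 1 with peaks of 200 bp or wider (1 gene). They were 1 to 36 (1 to 19 genes) with each library left out, where fewer libraries decide. Lost regions, 2 as reported, were 5 within 50 kb (4 genes), 1 with equal numbers of widest peaks and 1 with the widest 75% of peaks (1 gene each), and 5 to 23 (5 to 15 genes) with each library left out. The difference in regions called was -41.5 to 32 with each library left out, that in percent of regions -17.9 to 12.1, and that in bases under peaks -33.1 to 2.99 kb. With equal numbers of widest peaks the difference in regions was 0. With a replicate block, which is also a block on sex, the difference in regions was -4.5 (exact sign-flip permutation test, p = 1). In this balanced design the block cannot change that difference. With the block limma gave 0 receptor regions with changed width, as it did under all 12 alternatives. Replicate numbers are not given as pairing the mice, and over 60713 regions the deviations of same-numbered libraries correlated at 0.148. The count of genes open at a start in all libraries was within 1.5 times of 25 under all 11 alternatives, which were chosen after seeing the data. Most of these could not lower it. The distance to genes does not enter this count, and joining peaks, a wider start window or leaving a library out can only hold or raise it. The count could fall with equal numbers of widest peaks, the widest 75% of peaks or peaks of 200 bp or wider, and was 25 in each. Unknown depth limits every absence of a call.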

Other observations

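Regions with a wide peak in 3 tumours and no call in the other tumour were looked for, with a minimum of 700 bp in each of the 3, a width chosen after seeing the data. There were 2 at receptor genes, both without a call in KrasLA1;Dicer1S2D replicate 2. In Ppard (chr17:28271603-28273368) the peaks were 1457 and 1723 bp in KrasLA1 replicates 1 and 2 and 1682 bp in KrasLA1;Dicer1S2D replicate 1. In Rarb (chr14:16960415-16961469) they were 996, 830 and 731 bp in the same order. Among all autosomal regions 71 met the same rule, with the call absent in KrasLA1 replicate 1 for 28, in KrasLA1 replicate 2 for 6, in KrasLA1;Dicer1S2D replicate 1 for 9 and in KrasLA1;Dicer1S2D replicate 2 for 28.

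Nr2e3, a photoreceptor gene, had 4 regions, all called in KrasLA1 replicate 2 and 0 in KrasLA1 replicate 1, with 2 in each KrasLA1;Dicer1S2D tumour.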
